A study of Mus musculus with 38 samples.

Results

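The chaperonins are barrel-shaped protein-folding machines, and 10 genes encoding them were followed through 38 mouse kidney RNA-seq libraries. The 10 genes were taken by symbol from the 21705 rows of the expression table. They comprise the 8 subunits of the cytosolic chaperonin CCT (also called TRiC), which are Tcp1, Cct2, Cct3, Cct4, Cct5, Cct6a, Cct7 and Cct8, together with the mitochondrial chaperonin Hspd1 (Hsp60) and its partner Hspe1 (Hsp10). Across the 6 groups of cell line libraries all 10 rose with doxycycline (Dox), the drug that switches on the MYC transgene in these models. In tumours against normal kidney the 8 CCT subunits rose in all 3 genotypes, while Hspd1 and Hspe1 did not pass the test in any of them, a result that some filters, scalings, kidney controls and left-out mice changed.

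CCT is a double ring in which each ring holds one copy of every subunit, and it is best known for folding actin and tubulin. Newly made actin and tubulin can be handed to it by prefoldin, and phosducin-like proteins act on it as co-chaperones. Hspd1 forms the folding chamber of the mitochondrial matrix and Hspe1 is the lid that closes it, downstream of the mitochondrial Hsp70 Hspa9. MYC is a transcription factor that drives growth and ribosome production, and renal tubule cells are rich in mitochondria.

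The study modelled kidney cancer in mice that carry a Tet-O-MYC transgene under Ksp-rtTA, so that Dox switches MYC on in renal tubule cells. The cell lines had the labelled genotypes MYC+ (MYC cells), Vhl-/-; MYC + (VM cells) and Vhl-/-; MYC +; Ink-/-/Arf-/- (VIM cells), and each line was sampled with Dox maintained and with Dox withdrawn, 4 libraries each. Every line is 1 line from 1 tumour, and the labels do not say that its libraries came from separate cultures, so p-values in cells measure only the spread between these libraries. The paper kept its lines in Dox, replated cells with or without it and took RNA the next day. The contrast is thus of a short withdrawal. Since all 3 lines carry the transgene and no line without it was sampled, the drug itself and MYC cannot be told apart in cells. Tumours of the same 3 genotypes came from mice maintained on Dox (3 libraries each), and the 5 normal kidneys came from Wild Type mice given vehicle, so that tumour, transgene and Dox cannot be told apart in that comparison. The Vhl deletion depends on a tamoxifen-inducible Cre under the Ksp cadherin promoter, and the Ink/Arf deletion is germline. In VM and VIM tumours the Vhl deletion, Cre and tamoxifen likewise cannot be told apart from the tumour in the comparison with kidney. The same holds for the Ink/Arf deletion in VIM tumours. Of the 3 MYC tumour libraries, 2 are from one mouse (2983) and were averaged before testing. The titles of the MYC cell libraries also carry the number 2983. The paper names its sequenced VM line VM-3055, and 1 VM tumour library is labelled 3055. By these numbers, cells and tumours do not all come from separate animals. No age was given in the labels.

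Estimated reads assigned to genes were 12.4 to 36.6 M in the cell line libraries and 8.22 to 15.5 M in tumours and kidneys. Levels are given in units of a scale on which the upper quartile of each library's expressed genes is 1000. The 10 chaperonin genes ranged from 780 to 20560 units, and the fewest estimated reads for any of them in any library was 973, so none was near the detection limit. Vhl was at 451 ± 12.2 units (SD, n = 4) in MYC cells with Dox and at 13.1 ± 2.07 in VM and 12.7 ± 4.01 in VIM cells with Dox, and Cdkn2a, the Ink/Arf locus, was at 3473 to 4190 units in VM and 24.9 to 34.7 in VIM cells with Dox. In tumours Vhl was at 40.2 to 79.9 units in VM, 219 to 312 in VIM and 468 to 560 in MYC samples, and Cdkn2a at 3392 to 4347 in VM, 30.1 to 95.5 in VIM and 59.3 to 2872 in MYC tumours, the last 2 values being those of the libraries of mouse 2983. Of the 6 proximal tubule markers, Slc34a1, Slc5a2, Slc22a6 and Miox were at or under the level of 3 reads in all 6 groups of cell libraries. With Lrp2 and Aqp1 the 6 summed to 3753 to 7986 units there, and the 6 renal epithelium markers together were at 5740 to 18352 units. The Myc row went against the Dox labels, at 676 ± 23.8 units with and 1831 ± 45.7 without Dox in MYC cells, 384 ± 33.7 and 1364 ± 46.5 in VM cells, and 381 ± 34.2 and 1479 ± 65.4 in VIM cells. Immunoblots in the paper showed MYC protein to depend on Dox in MYC, VM and VIM cell lines, though not in these libraries. The sources used here do not say whether transgene reads are assigned to the Myc row. Thus "with Dox" and "without Dox" stand throughout for the libraries labelled so.

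Hspd1 and Hspe1 lie head to head on mouse chromosome 1. In the NCBIM37 annotation, the build of the authors' alignment, Hspd1 occupies chr1:55134679-55145087 on the minus strand and Hspe1 chr1:55144976-55148151 on the plus strand, and the genes overlap by 112 bases. Whether the counting used strand is not given in the sources used here, so reads of that stretch cannot be assigned with certainty. RefSeq names 23 pseudogenes of Hspd1 and 7 of Hspe1 that could share reads with them. It also names 5 of Cct7, 3 of Cct3, 2 each of Cct6a and Cct8, and 1 each of Tcp1 and Cct4. The stretch around the start sites of Hspd1 and Hspe1 is shown because these 2 genes moved most with Dox. The first line below is the RefSeq promoter window of Hspe1 (GRCm38.p6, chr1:55087898-55088197, plus strand), with a pair of overlapping heat shock elements of 3 units in capitals, and the second line is a stretch upstream of one of the Hspd1 start sites (GRCm38.p6, chr1:55088278-55088363, minus strand), with an E-box in capitals. The second stretch lies downstream of the Hspe1 start site.
Hspe1 window: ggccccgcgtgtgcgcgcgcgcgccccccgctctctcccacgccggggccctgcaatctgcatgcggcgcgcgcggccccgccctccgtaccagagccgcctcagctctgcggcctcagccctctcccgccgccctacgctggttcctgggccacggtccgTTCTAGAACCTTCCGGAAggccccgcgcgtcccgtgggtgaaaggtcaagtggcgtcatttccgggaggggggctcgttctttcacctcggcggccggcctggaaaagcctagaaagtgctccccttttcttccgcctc
Hspd1 upstream stretch: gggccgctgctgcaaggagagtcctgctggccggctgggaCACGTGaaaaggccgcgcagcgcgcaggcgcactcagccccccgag

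The E-box searched was CACGTG, the sequence that MYC with its partner MAX is known to bind, and the heat shock element searched was 3 units, TTC, GAA and TTC or GAA, TTC and GAA, with any 2 bases between neighbours. Both strands were read, in windows from 250 bases before to 50 bases after each start. Of the 10 genes 9 had a window (12 windows in all), and Cct4 had none. The E-box was in 1 of the 12 windows, that of Hspd1 at 80 bases before the start, against 7.15% of all 32851 windows. The heat shock element was in 2 of the 12 windows, those of Hspd1 and Hspe1, which hold the same stretch, and in no window of the 7 CCT subunits searched, against 0.603% of all windows. A GC box (GGGCGG or CCGCCC) was in 11 of the 12 windows against 35.7% of all windows, and a CCAAT box (CCAAT or ATTGG) in 5 of the 12, of Tcp1, Cct3, Cct6a, Cct7 and Hspd1, against 37.4%. These matches are descriptions of the letters, and no binding was measured. The CCT genes themselves are spread over 8 chromosomes in NCBIM37, Tcp1 on 17, Cct2 on 10, Cct3 on 3, Cct4 on 11, Cct5 on 15, Cct6a on 5, Cct7 on 6 and Cct8 on 16, and Tcp1, Cct6a, Cct7 and Cct8 overlap other annotated genes.

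Normal kidney had the lowest mean of the 10 groups for all 8 CCT subunits. Their summed level took 0.147% ± 0.00667 (SD, n = 5) of all units in kidney, 0.369% to 0.459% in the cells without Dox, 0.480% to 0.608% in the tumours and 0.696% to 0.763% in the cells with Dox. The ratio of the highest to the lowest group mean was 3.01 for Tcp1, 3.02 for Cct6a, 3.57 for Cct4, 3.81 for Cct2, 3.96 for Cct7, 4.58 for Cct5, 4.74 for Cct8 and 5.40 for Cct3. The mitochondrial pair followed another order. Hspd1 was lowest in VM cells without Dox (4482 ± 245 units, n = 4), followed upwards by VIM cells without Dox (4818 ± 158), MYC cells without Dox (7319 ± 70.0), normal kidney (9772 ± 1373), VM tumours (11213 ± 927), MYC tumours (12535 ± 561, 3 libraries), VIM tumours (15806 ± 5074), MYC cells with Dox (15982 ± 281), VM cells with Dox (16448 ± 309) and VIM cells with Dox (17266 ± 181). Only 3 neighbours in that order had ranges that did not overlap, which were VIM and MYC cells without Dox, MYC cells without Dox and kidney, and VM and VIM cells with Dox. Relative to the mean of the 8 CCT subunits in the same library, the level of Hspd1 was 2.71 ± 0.432 in normal kidney. The group means of that ratio were 0.664 to 0.835 in cells without Dox and 1.17 to 1.48 in the cells with Dox and the tumours. In VIM tumours the ratio was 1.37 ± 0.639 (SD, n = 3), with mouse 3130 at 0.665.

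**Figure D1:**
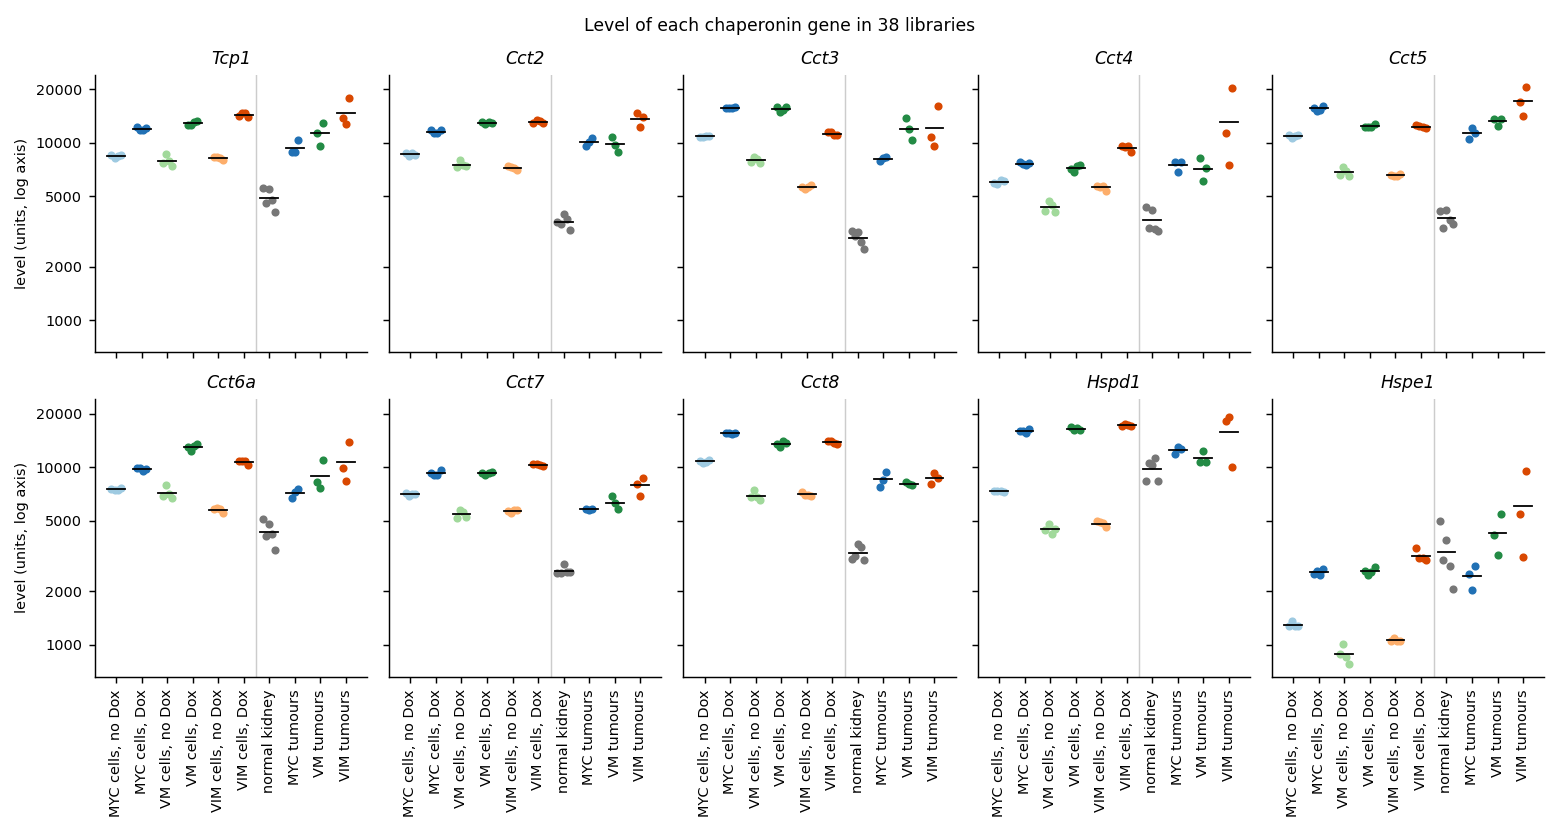
Level of each of the 10 chaperonin genes in every library (points, units on a log axis) in 10 groups, with the group mean as a bar. The 8 CCT subunits are lowest in normal kidney, while Hspd1 and Hspe1 are lowest in VM cells without Dox.

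The first comparison asked how the RNA of each line differs between the libraries labelled as maintained on Dox and those labelled as withdrawn from it. In every line all 8 CCT subunits rose with Dox, and for each of them the 4 libraries with Dox lay above the 4 without. In MYC cells Cct3 was at 15767, 15630, 15744 and 15823 units with Dox and at 10792, 10806, 10935 and 10976 without it, and Cct4, the subunit with the smallest rise, was at 7751, 7549, 7524 and 7643 against 5924, 5878, 6183 and 6076. The spread within each set of 4 was small beside the gap between the sets. In VM cells Cct8 had the largest rise of the 8, from 6822, 7469, 6771 and 6568 units to 13458, 12928, 13977 and 13675. In VIM cells Cct3 had the largest, from 5665, 5507, 5632 and 5757 units to 11499, 11431, 11004 and 10989.

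On the log2(value + 1) scale the CCT subunits rose by 0.34 to 0.53 in MYC cells, 0.71 to 0.97 in VM cells and 0.74 to 0.99 in VIM cells. The lowest rises were those of Cct4 in MYC cells (SE 0.025), Tcp1 in VM cells (SE 0.052) and Cct4 in VIM cells (SE 0.033). In limma fits over all genes with Benjamini-Hochberg adjustment the largest adjusted p among the 10 chaperonin genes was 5.5e-10 in MYC, 7.4e-10 in VM and 9.3e-15 in VIM cells. With a call defined as an adjusted p under 0.05, 10 of 10 genes rose in each line, against 31.5%, 26.1% and 31.1% of all genes tested in MYC, VM and VIM cells. All 10 also had ranges that did not overlap, with Dox above, against 29.5%, 23.8% and 28.9% of all genes. The median CCT change was 0.47 in MYC, 0.82 in VM and 0.88 in VIM cells, and that of all genes tested was -0.13, -0.26 and -0.15. None of the 8 subunits moved by over 2-fold in any line with the deposited scaling and all libraries. With 1 library left out, Cct8 reached up to 1.007 in VM cells and Cct3 up to 1.004 in VIM cells. After TMM rescaling 4 subunits moved by over 2-fold in VM cells and 6 in VIM cells, and the median of all genes was lifted to -0.07 and -0.02.

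Hspd1 and Hspe1 rose further than any CCT subunit in every line. In MYC cells Hspd1 was at 15941, 15974, 15665 and 16348 units with Dox and at 7302, 7395, 7348 and 7231 without it, in VM cells at 16763, 16213, 16660 and 16154 against 4431, 4808, 4217 and 4472, and in VIM cells at 17099, 17514, 17277 and 17174 against 4953, 4891, 4835 and 4592. The levels with Dox differed little between lines, and the gap between lines was in the libraries without Dox. Its log2 change was 1.13 (95% interval 1.07 to 1.18) in MYC, 1.88 (1.78 to 1.98) in VM and 1.84 (1.78 to 1.91) in VIM cells, folds of 2.18, 3.67 and 3.58. Hspe1 was at 2509, 2613, 2465 and 2681 units with and 1277, 1358, 1280 and 1270 without Dox in MYC cells, at 2617, 2480, 2570 and 2748 against 884, 1006, 856 and 780 in VM cells, and at 3505, 3083, 3089 and 2993 against 1055, 1085, 1046 and 1053 in VIM cells. No library without Dox reached the lowest library with Dox for either gene. The log2 change of Hspe1 was 0.99 (0.92 to 1.05), 1.57 (1.43 to 1.70) and 1.58 (1.49 to 1.66) in MYC, VM and VIM cells, and the lower bounds for both genes lay above the upper bounds of all 8 CCT subunits in each line. Past 2-fold were Hspd1 alone in MYC cells and both genes in VM and VIM cells, against 4.49%, 5.92% and 7.67% of all genes tested higher past 2-fold. Hspe1 missed 2-fold narrowly in MYC cells and passed it without Dox replicate 3 or without no-Dox replicate 2, which gives 2 genes in place of 1.

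**Figure D2:**
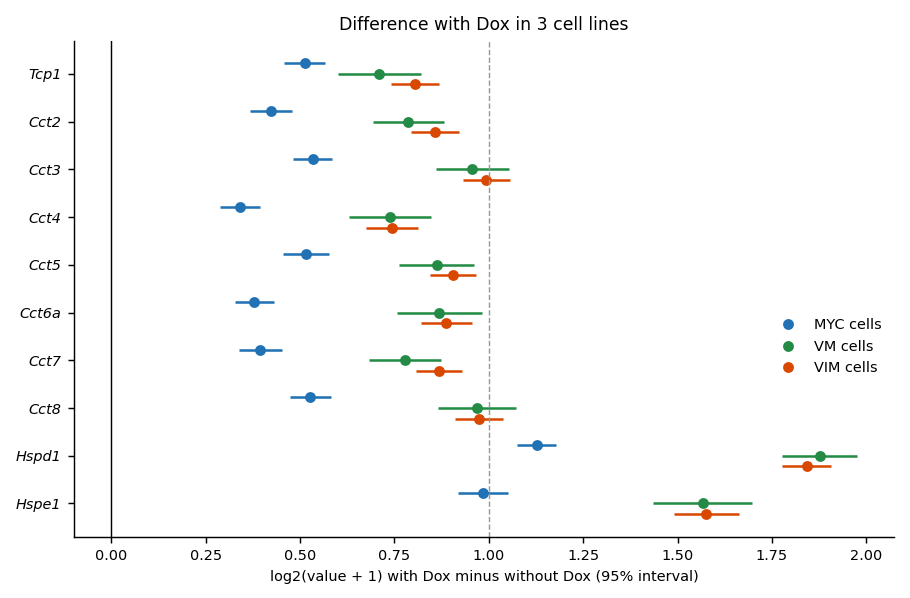
Difference with Dox in log2(value + 1) for each chaperonin gene in MYC, VM and VIM cells (points) with 95% intervals (lines), n = 4 against 4 libraries, and the dashed line at 2-fold. Hspd1 and Hspe1 lie to the right of all 8 CCT subunits in each line, and MYC cells lie to the left of VM and VIM cells for all 10 genes.

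The line by Dox interaction asks whether the change with Dox differs between lines. All 10 genes rose more in VM than in MYC cells and more in VIM than in MYC cells, against 17.5% and 23.9% of all genes tested that were called in that direction. The difference in log2 change between VM and MYC cells was 0.20 for Tcp1 (SE 0.058), the smallest, 0.35 to 0.49 for the other 7 CCT subunits, 0.75 for Hspd1 and 0.58 for Hspe1, with adjusted p from 2.4e-10 to 0.0077 in limma. Between VIM and MYC cells it was 0.29 to 0.51 for the CCT subunits, 0.72 for Hspd1 and 0.59 for Hspe1, with adjusted p from 1.0e-12 to 8.8e-07. Both interactions share the MYC cell libraries. The S numbers that close their titles start anew, apart from the run shared by the VM and VIM libraries, while their J numbers follow those of VIM cells. Line and any set in which the libraries were made therefore cannot be told apart. None of the 10 genes was called in the interaction of VIM with VM cells, where 22.8% of all genes were called higher and 10.5% lower. There the differences lay between -0.03 for Hspd1 and 0.10 for Tcp1, no 95% interval reached below -0.16 or above 0.22, and no gene had an unadjusted p under 0.05. Other scalings changed that count, with 2 genes called after TMM rescaling (Cct8 at -0.14 and Hspd1 at -0.18) and 2 after quantile normalization (Tcp1 at 0.15 and Hspd1 at -0.39).

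Proliferation markers moved with Dox beside these genes. The summed level of the 6 proliferation markers was 27433 to 28562 units with and 16805 to 17367 without Dox in MYC cells, 28658 to 29924 and 13967 to 16665 in VM cells, and 23625 to 23932 and 10493 to 11385 in VIM cells. The 6 markers of renal epithelium together were lower with Dox (11562 to 13064 against 17439 to 18352 units in MYC, 5740 to 5865 against 13159 to 13606 in VM and 5938 to 6073 against 10358 to 11091 in VIM cells), and so were the 6 fibroblast markers (155 to 212 against 835 to 985, 85.7 to 110 against 628 to 709, and 21.8 to 30.2 against 130 to 175 units). Leukocyte markers summed to 218 to 1013 units and endothelial markers to 0 to 12.5 units over all cell line libraries, and the part of any of these in the chaperonin changes was not tested.

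With Dox in both lines, VIM cells were compared with VM cells. Of the 10 genes 5 were higher in VIM cells, against 35.1% of all genes tested, and 2 were lower, against 32.4%. Cct4 was at 9632, 9519, 9529 and 8865 units in VIM and 7145, 6871, 7366 and 7497 in VM cells (log2 difference 0.38, SE 0.036, limma adjusted p = 8.2e-08). Cct3 went the other way, at 11499, 11431, 11004 and 10989 units against 15809, 14830, 15313 and 15908 (-0.46, SE 0.033, limma adjusted p = 2.3e-09), and so did Cct6a (-0.29). Tcp1 (0.15), Cct7 (0.16) and Hspe1 (0.28) were higher in VIM cells. Hspd1 was called at 0.07 (limma adjusted p = 0.045), a call that was lost without any of 6 of the 8 libraries and that turned to -0.23 under quantile normalization. Cct2, Cct5 and Cct8 were not called, with intervals of -0.05 to 0.07, -0.08 to 0.05 and -0.03 to 0.10, but quantile normalization called Cct5 lower (-0.085, limma adjusted p = 0.0059).

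Other genes of the folding system moved less uniformly with Dox. Beside their counts stand the 31.5%, 26.1% and 31.1% of all genes tested that were called higher in MYC, VM and VIM cells and the 44%, 47.7% and 44.2% that were called lower. Of the 14 mitochondrial chaperones and proteases, 11 rose and 1 fell in MYC, 8 and 3 in VM, and 11 and 3 in VIM cells, with a median of 0.31, 0.22 and 0.31. Hspa9, which feeds proteins to Hspd1, rose by 0.38, 0.50 and 0.52, and Trap1, the mitochondrial Hsp90, by 0.66, 0.68 and 0.72. Clpp, a matrix protease subunit, had the largest rise of that list in VM cells (0.97), which is smaller than that of Hspd1 or Hspe1 there. The list's lowest values were those of Dnajc19 in MYC cells (-0.35) and Hscb in VM and VIM cells (-0.64 and -0.44). Of the 14 genes of mitochondrial content, 11, 11 and 13 rose and 1 fell in each line, Vdac3 in MYC and VIM cells (-0.11 and -0.11) and Sdhb in VM cells (-0.12). Among those that rose were Tomm20 (0.65, 1.35 and 1.11) and Tomm40 (0.68, 1.04 and 1.01), both subunits of the outer-membrane import complex. The median of that list was 0.41, 0.42 and 0.49, against 1.13, 1.88 and 1.84 for Hspd1.

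The genes around CCT were split. Beside their counts stand the same shares of all genes, 31.5%, 26.1% and 31.1% called higher and 44%, 47.7% and 44.2% called lower in MYC, VM and VIM cells. Of the 5 prefoldin genes tested, 3, 2 and 3 rose and 2 fell in each line, with Pfdn2 at 0.73, 0.56 and 0.82 and Pfdn1 at -0.40, -0.74 and -0.25. No CCT co-chaperone of the 3 tested rose, and Pdcl3 fell by 0.78, 0.75 and 1.23 on the log2 scale. Among the 13 actin and tubulin genes 5 rose in each line and 8, 6 and 7 fell, with Tuba1b at 0.32, 0.71 and 0.76 and Tubb2a at -1.27, -1.97 and -2.19, so the RNA of the CCT clients did not move as one group. None of the 5 tubulin cofactors rose, and 2, 3 and 4 of them fell. Of the 17 genes of the cytosolic HSP70 and HSP90 machinery 12, 11 and 12 rose and 4, 5 and 3 fell, with a median of 0.34, 0.57 and 0.65. Their largest rise was that of Ahsa1, a co-chaperone of Hsp90 (0.92, 1.33 and 1.23), while the small heat shock protein gene Hspb1 fell by 1.25, 1.21 and 1.51. Of the chaperonin-like genes tested, 2 of 5, 1 of 5 and 1 of 4 rose and 0, 1 and 0 fell, Bbs12 rising in every line (0.16, 0.37 and 0.90).

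The next comparison set tumours of each genotype against normal kidney. All 8 CCT subunits rose in MYC, VM and VIM tumours, against 27.3%, 25.7% and 25.5% of all genes tested. Past 2-fold were 6 of them in MYC, 7 in VM and 8 in VIM tumours, against 18.7%, 17.3% and 18.9% of all genes. Cct5 was at 10492 units in the tumour of mouse 2917 and at 12097 and 11352 in the libraries of mouse 2983 (MYC), at 13659, 12475 and 13679 in VM and at 16991, 14173 and 20560 in VIM tumours, and the 5 kidneys were at 4142, 3311, 4171, 3694 and 3504. No tumour came near the highest kidney. Cct3 was at 7902, 8190 and 8323 units in MYC, 13742, 11913 and 10380 in VM and 10825, 9521 and 16079 in VIM tumours against 3170, 2993, 3138, 2761 and 2525 in kidney.

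The log2 changes of the CCT subunits ran from 0.72 (Cct6a, 95% interval 0.30 to 1.13) to 1.56 (Cct5, 1.21 to 1.92) in MYC tumours, from 0.97 (Cct4, 0.60 to 1.34) to 2.04 (Cct3, 1.72 to 2.36) in VM tumours and from 1.29 (Cct6a, 0.83 to 1.75) to 2.18 (Cct5, 1.80 to 2.57) in VIM tumours. The largest limma adjusted p among the 8 was 0.011, that of Cct6a in MYC tumours. The median over the 8 was 1.25, 1.29 and 1.66, against 0.08, -0.05 and 0.01 over all genes tested. Cct6a in MYC tumours was no longer called when only the 2 kidneys with B6 in their titles served as controls (0.51, limma adjusted p = 0.076). It was called in every other setting. The summed CCT level was 31416 and 32319 units in these kidneys and 27464, 28496 and 25466 in those with KT in their titles. Against B6 kidneys alone the median CCT change was 1.21, 1.25 and 1.52 in MYC, VM and VIM tumours. Against KT kidneys alone it was 1.29, 1.32 and 1.80. The part of other cells could not be separated here, since in bulk samples fewer cells of a type and less RNA per cell cannot be told apart. The 6 proximal tubule markers summed to 225737 to 265281 units in the kidneys and 1753 to 10012 in the 9 tumour libraries, the 6 proliferation markers to 155 to 280 and 5364 to 19065, and the 6 leukocyte markers to 827 to 1938 and 861 to 3938. Endothelial markers (4 genes) summed to 2289 to 4077 and 138 to 1372 units, fibroblast markers to 910 to 3208 and 491 to 8052, and renal epithelial markers to 20365 to 29231 and 9322 to 22767. Their part in the chaperonin levels was not tested.

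**Figure D3:**
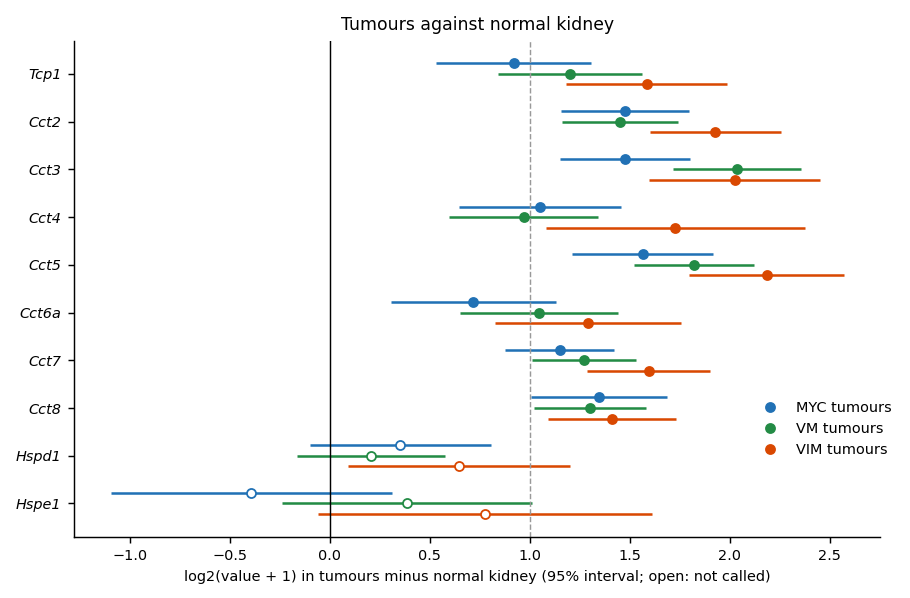
Difference between tumours and normal kidney in log2(value + 1) for each chaperonin gene in MYC, VM and VIM tumours (points, open where not called) with 95% intervals (lines), 2, 3 and 3 mice against 5 kidneys, and the dashed line at 2-fold. All 8 CCT subunits are called in all 3 genotypes, and Hspd1 and Hspe1 in none.

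The mitochondrial pair did not pass the test in any tumour genotype. Hspd1 was at 11946, 13062 and 12598 units in MYC, 10674, 12284 and 10682 in VM and 18205, 19236 and 9977 in VIM tumours, against 8332, 10632, 10284, 11300 and 8311 in kidney. The MYC tumours lay above all kidneys, and the VM and VIM tumours overlapped them. The log2 changes were 0.35 (95% interval -0.10 to 0.81), 0.21 (-0.16 to 0.58) and 0.65 (0.09 to 1.20), with limma adjusted p of 0.17, 0.31 and 0.052. In VIM tumours 1 of the 3 mice, 3130, was within the kidney range, and without it the change was 0.95 and was called (limma adjusted p = 0.0026). A filter at a mean of 10 units and voom on estimated reads also called it in VIM tumours (limma adjusted p = 0.046 in both). Quantile normalization called Hspd1 in all 3 genotypes, at 1.23, 0.89 and 1.20. Counting the genes whose tumours lay above every kidney gives 9 of 10 in MYC, 8 in VM and 8 in VIM tumours, against 27.3%, 24.3% and 24% of all genes. Of the 14 mitochondrial chaperones and proteases, 0, 0 and 1 rose and 8, 5 and 3 fell in MYC, VM and VIM tumours, with Hspa9 at 0.11, 0.08 and 0.22 and Trap1 at 0.04, -0.17 and 0.25, none of these called, where 24.2%, 29% and 26.2% of all genes were called lower. The largest fall of that list was that of Dnajc19, a part of the import motor, at -2.05, -1.74 and -1.36.

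Hspe1 was at 2499, 2025 and 2764 units in MYC, 4149, 3223 and 5427 in VM and 5475, 3109 and 9575 in VIM tumours, against 5009 and 3880 in the kidneys with B6 in their titles and 2999, 2769 and 2053 in those with KT. Its log2 changes were -0.39 (95% interval -1.10 to 0.31), 0.39 (-0.24 to 1.01) and 0.77 (-0.06 to 1.61), with limma adjusted p of 0.32, 0.27 and 0.11. They moved with the kidneys chosen. Against B6 kidneys alone Hspe1 was called lower in MYC tumours (-0.86) and was at -0.08 in VM tumours, and against KT kidneys alone it was called higher in VM tumours (0.70). Quantile normalization called it higher in VM (0.75) and VIM tumours (1.01). Without VIM mouse 3233 it was called higher in VIM tumours (1.18, limma adjusted p = 0.021).

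The level of Hspe1 went with the balance of short and long transcripts in the tissue libraries. That balance was taken as the median log2 deviation of 549 genes with transcripts under 1 kb minus that of 5028 genes of 2 to 4 kb, each gene against its median over the 14 tissue libraries. The longest annotated Hspe1 transcript is 964 bases and that of Hspd1 2423 bases. The library of VIM mouse 3130 had the highest balance (0.87) and the highest Hspe1 (9575 units), followed in balance by VIM mouse 3237 (0.46) and the first B6 kidney (0.43), which had 5475 and 5009 units. The libraries with the lowest balance were the pair from MYC mouse 2983 (-0.62 and -0.39), with 2025 and 2764 units. Hspd1 did not follow the same order, with 9977 units in mouse 3130, 18205 in mouse 3237 and 13062 and 12598 in mouse 2983. Hspe1 relative to Hspd1 was 0.96 in mouse 3130 and 0.16 to 0.60 in the other 13 tissue libraries. The part of this balance in the Hspe1 levels was not tested, and it was examined only after the values had been seen.

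**Figure D4:**
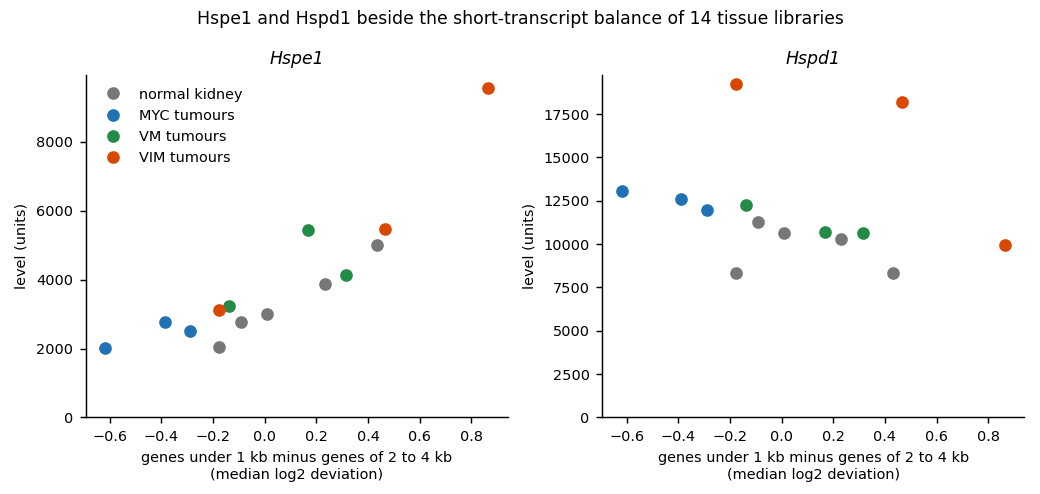
Level of Hspe1 (left) and Hspd1 (right) in units against the balance of short and long transcripts in 14 tissue libraries, coloured by group. Hspe1 is highest where the balance is highest, in VIM mouse 3130 at 0.87, and Hspd1 there is at 9977 units.

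Other folding genes in the tumours were also tested against kidney, where 27.3%, 25.7% and 25.5% of all genes were called higher and 24.2%, 29% and 26.2% lower in MYC, VM and VIM tumours. Of the actin and tubulin genes, the clients of CCT, 9 of 12 rose in MYC, 11 of 13 in VM and 12 of 13 in VIM tumours and none fell, with a median of 1.02, 1.24 and 1.81. Tubb5 (3.84, 3.09 and 3.45) and Tubb6 (3.38, 4.43 and 3.39) are among the larger rises. Of the 5 prefoldin genes 0, 3 and 3 rose, and of the 3 CCT co-chaperones 0, 1 and 1. The 17 genes of the HSP70 and HSP90 machinery held 8, 9 and 7 that rose and 2 that fell in each genotype, with Hspb1 at 3.67, 3.64 and 4.05 and Dnaja1, an Hsp70 co-chaperone, at -1.26, -1.30 and -1.32. Of the 14 genes of mitochondrial content 1, 4 and 5 rose and 4, 3 and 1 fell. Sdhb, a subunit of complex II, was at -2.17, -1.06 and -0.28, the last not called, and Ndufs1, a subunit of complex I, fell by 1.07, 1.02 and 0.73, while Tomm40 rose by 0.98, 1.17 and 1.42. Bbs12 was the only one of the chaperonin-like genes tested that rose, by 2.33, 2.50 and 1.97, and Cct6b, a paralog of Cct6a, was at -3.18, -3.18 and -2.77. Among the 5 tubulin cofactors 2, 1 and 2 rose and 1, 2 and 0 fell.

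VIM tumours were also compared with VM tumours, whose labelled genotypes differ by the Ink/Arf deletion. Their Vhl levels did not overlap, at 219 to 312 units in VIM and 40.2 to 79.9 in VM tumours (log2 difference 2.27, not called, limma adjusted p = 0.13), so that the comparison is of the labelled groups and not of that deletion alone. None of the 10 genes was called, where 0.174% of all genes were called higher and 0.0746% lower in limma, and none had an unadjusted p under 0.05. The log2 differences lay between -0.01 (Cct3) and 0.76 (Cct4), with 95% intervals that reached from -0.73 to 1.64, so a level over 2-fold higher in VIM tumours was within the error for Tcp1, Cct2, Cct4, Cct5, Hspd1 and Hspe1. Cct2, Cct5 and Cct7 had all 3 VIM tumours above all 3 VM tumours, 3 of 10 genes, against 9.67% of all genes tested. Among the CCT subunits Cct4 showed the widest spread in VIM tumours, at 11369, 7521 and 20285 units in VIM and 8248, 6048 and 7171 in VM tumours, the highest value being that of mouse 3130.

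The makeup of CCT at the RNA level was not fixed. Levels per kilobase of merged exons were added over the 8 subunits, and the share of each was taken. Since the complex holds equal numbers of each subunit, an even split is drawn for reference in the plot of shares. The lengths are those of the NCBIM37 annotation, where Cct6a has 1599 bases from 1 transcript and Tcp1 has 5030 from 10. Distance from the even split depends on these lengths and does not measure an excess or lack of a subunit. Cct6a had the largest share in normal kidney (25.0% ± 1.68, SD, n = 5) and 17.2% in MYC cells with Dox. Cct8 had 18.4% ± 0.206 (SD, n = 4) in MYC cells with Dox and 10.6% ± 2.37 (n = 3) in VIM tumours. Cct3 had 9.49% in MYC cells with Dox and its lowest share, 5.78%, in normal kidney. Cct5 ran from 12.1% in VM cells without Dox to 17.4% in VIM tumours. Cct4 ran from 4.75% in VM cells with Dox to 8.48% ± 2.75 (SD, n = 3) in VIM tumours, with normal kidney at 8.06% ± 0.639. In VIM tumours the Cct4 level itself was highest in mouse 3130, at 20285 units against 11369 and 7521. Cct7 ran from 9.21% to 12.1%, Cct2 from 16.6% to 20.6% and Tcp1 from 6.48% to 9.01%. With the length of the longest transcript instead, the shares themselves moved, Cct6a in kidney to 21.1% and Cct5 in VIM tumours to 21.3%, and the groups with the lowest and highest share of each subunit were the same.

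**Figure D5:**
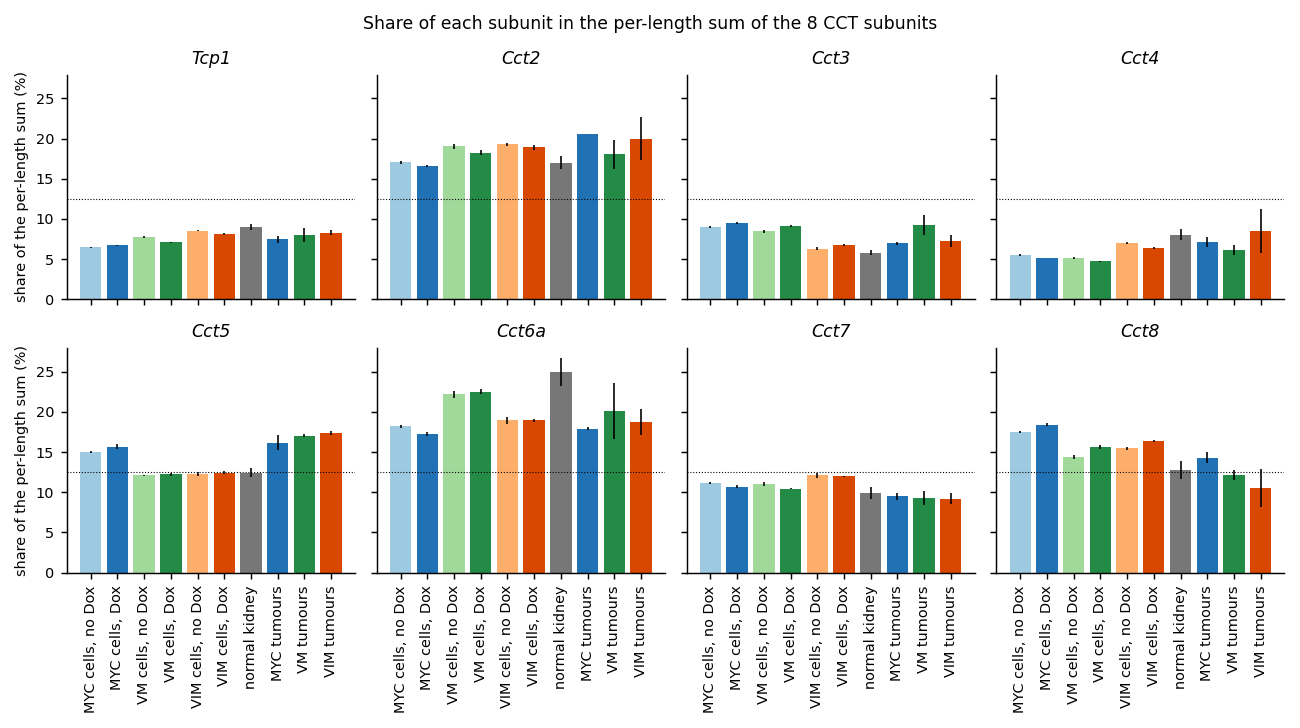
Share of each subunit in the sum of the 8 CCT subunits per kilobase of merged exons (bars, percent, with SD over libraries) in 10 groups, and an even split as a dotted line. Cct6a is highest in normal kidney at 25.0% and Cct8 in MYC cells with Dox at 18.4%. Distance from the dotted line depends on the annotated lengths.

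The 10 genes were last described by how alike they were. Over the 10 group means of log2(value + 1) the 28 pairs of CCT subunits had a median Pearson r of 0.92 (0.68 to 0.97), Hspd1 and Hspe1 had 0.83, and CCT subunits had 0.50 to 0.69 with Hspd1 and 0.07 to 0.58 with Hspe1. Over the 6 cell groups alone the median r of CCT subunits with Hspd1 was 0.94 and that of Hspd1 with Hspe1 was 0.99, while over the 4 tissue groups they were 0.85 and 0.48. These groups share lines, libraries' preparation and, by their numbers, some mice, and the values are descriptions. Of the 11861 other genes whose mean reached 50 units, the 5 most like the mean of the 8 CCT subunits were Srsf6 (r = 0.992), Eif2b3, Srsf3, Nup43 and Rnmt, and the 5 most like the mean of Hspd1 and Hspe1 were Rpp40 (r = 0.981), BC048355, Chchd4, Timm50 and Ifrd2. Over the 38 libraries the list for CCT became Rsl1d1, Srsf6, Ran, Srsf3 and Snrpd1, and the list for Hspd1 and Hspe1 held the same 5 genes.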

How the data were processed

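RNA was sequenced in 24 cell line and 14 tissue libraries (38 in all). The authors aligned reads to mm9 with MapSplice and assigned them to UCSC genes with RSEM; the submitters' notes also name Picard 1.64 and SAMtools. The deposited values are a signal scaled so that the upper quartile is 1000 (checked at 998.6 to 1000), so they are not counts. Of 21705 rows, 2 of a repeated symbol were left out. Reads were estimated by dividing by the worth of 1 read. Each comparison was fitted with limma 3.58.1 (R 4.3.3; lmFit, eBayes with trend) on log2(value + 1), two-sided, over genes above 0 in at least 4 libraries (2 in tissues), with Benjamini-Hochberg adjustment over all genes. A call needed an adjusted p under 0.05, and "past 2-fold" also a change over 1 (log2). Python 3.11.15 was used elsewhere. The fits were checked on simulated data. The 10 members were named in every comparison, and other genes were drawn from the 2 largest and 2 smallest changes of each related list, with Hspa9 and Trap1. Not all of these are named. Members and lists were chosen with earlier results of these data known. Alternatives varied pseudocount, filter, scaling (TMM, quantile), variance, voom on estimated reads, block, controls, mice and libraries left out.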

Additional observations from a re-analysis of the deposited data

Results flagged for a closer look

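In both tested contrasts with MYC cells the change with Dox differed between lines for all 10 genes by the limma interaction. The extra rise in VM over MYC cells was 0.20 for Tcp1, 0.36 for Cct2, 0.42 for Cct3, 0.40 for Cct4, 0.35 for Cct5, 0.49 for Cct6a, 0.38 for Cct7, 0.44 for Cct8, 0.75 for Hspd1 and 0.58 for Hspe1 on the log2 scale. The extra rise in VIM over MYC cells was 0.29 for Tcp1, 0.43 for Cct2, 0.46 for Cct3, 0.40 for Cct4, 0.39 for Cct5, 0.51 for Cct6a, 0.47 for Cct7, 0.45 for Cct8, 0.72 for Hspd1 and 0.59 for Hspe1.

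In 6 of 70 member and group pairs with 4 or 5 libraries, 1 library stood far from the others by Dixon's ratio, where chance alone gives about 3.5. They were Cct8 in MYC cells with Dox (lowest, 15329 units), Hspe1 in MYC cells without Dox (highest, 1358), Cct5 in VM cells with Dox (highest, 12826), Cct4 and Cct6a in VIM cells with Dox (lowest, 8865 and 10247, both replicate 4) and Cct7 in normal kidney (highest, 2845).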

How the results depend on the processing

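All 10 genes were called higher with Dox in each line, and higher in both interactions with MYC cells, in every setting and with every library left out in turn. All 8 CCT subunits were called higher in tumours in every setting, except Cct6a in MYC tumours against B6 kidneys alone. Same-numbered libraries of VM and VIM cells did not deviate together from their group means (correlations of -0.047 to 0.068), so the numbers were not taken to pair them. The replicate block called 10 genes with Dox in VM cells and 10 in VIM cells, 0 in the interaction of VIM with VM cells and 6 in VIM against VM cells with Dox, where it lost Hspd1 (adjusted p = 0.067), and it changed no other call of these genes. The number of these genes past 2-fold with Dox was 2 with TMM and 2 with quantile normalization in MYC cells, 6 and 4 in VM cells and 8 and 5 in VIM cells, and quantile normalization put 1 past 2-fold in the interaction of VM with MYC cells. The share of called genes that were higher with Dox went from 35.3% to 47.2% with TMM and 49.95% with quantile normalization in VM cells, and from 41.7% to 52.7% with the latter in MYC cells. In the interactions that share went from 68.4% to 35.6% with TMM and 54.8% with quantile normalization (VIM with VM) and from 50.3% to 62.5% with TMM (VIM with MYC).

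In the interaction of VIM with VM cells, TMM and quantile normalization each called 2 of the genes. TMM turned Tcp1 to -0.051, Cct2 to -0.077, Cct3 to -0.11, Cct4 to -0.14, Cct5 to -0.10, Cct6a to -0.13, Cct7 to -0.055, Cct8 to -0.14 and Hspe1 to -0.14, and quantile normalization turned Cct3 to -0.096, Cct4 to -0.043, Cct6a to -0.046, Cct8 to -0.041 and Hspe1 to -0.025. In VIM against VM cells with Dox quantile normalization turned Cct2 to -0.048, Cct8 to -0.062 and Hspd1 to -0.23, in VIM against VM tumours Cct8 to -0.044, and B6 kidneys alone turned Hspe1 in VM tumours to -0.080. The cause was not tested.

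Counts over all genes past 2-fold moved with a pseudocount of 10 from 2942 to 1936 with Dox in MYC cells, from 918, 1389 and 1416 to 458, 675 and 674 in the interactions of VIM with VM, VM with MYC and VIM with MYC, and from 2690 to 1653 in VIM against VM cells with Dox. With a mean of at least 10 units they were 541, 856 and 854 in the 3 interactions. B6 kidneys alone gave 5408 genes called in VIM tumours, against 8560. In VIM against VM tumours 40 genes were called, all past 2-fold, and these counts were 26 with a pseudocount of 10, 24 with a mean of at least 10 units, 0 without moderation of the variance and 15 with voom.

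With libraries left out in turn, these genes past 2-fold in MYC cells numbered 1 to 2. Cct8 in VM cells (up to 1.007) and Cct3 in VIM cells (up to 1.004) also passed 2-fold with a library left out. In the interaction of VIM with VM cells the values ran from -0.036 to 0.038 for Cct4, -0.030 to 0.049 for Cct6a, -0.032 to 0.029 for Cct8 and -0.056 to 0.066 for Hspe1, and in VIM against VM cells with Dox from -0.00023 to 0.021 for Cct2 and -0.022 to 0.0027 for Cct5. In VIM against VM tumours they ran from -0.23 to 0.14 for Cct3 and -0.016 to 0.80 for Hspe1, and the genes called from 2 to 45. With 2 or 3 mice a tumour group, and 1 left in MYC tumours when the other mouse is left out, the lone mouse is assumed to vary like the kidneys.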
